A study of Homo sapiens with 16 samples.

Results

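The 15 introns of *EIF4G2* that lie outside the minigene region, introns 1 to 14 and intron 21, were described in endogenous transcripts of HEK293T cells, an established human embryonic kidney line. A direct RNA read was taken as endogenous when it listed at least 1 of introns 1 to 14, which no minigene carries. This rule kept 490 of 9628 *EIF4G2* reads in 6 libraries, or 5.09% (95% Wilson interval 4.67 to 5.55). The comparison was with introns 15 to 20 of the same reads, so that all 21 introns of the transcript were covered.

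*EIF4G2*, also called DAP5, encodes a relative of the translation initiation factor eIF4G that lacks the part which binds the cap-binding protein eIF4E, and its translation starts at a GUG codon. Most introns of a human gene are excised while the gene is transcribed, but not in the order in which they are made. An intron that leaves after its neighbours is called a slowpoke intron, and intron 18 of *EIF4G2* was chosen by the study as one. An intron can also be skipped, when a splice site at either or both of its ends is not used. The exon beside it can then be left out of the RNA, or another splice site can be used.

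All 6 libraries came from cells transfected for 24 h with 1 minigene, and each minigene had 1 library. The long minigene held introns 15 to 20, and short_1 held introns 15 to 18. Δint19+20 and mut 5′SS were forms of the long minigene without introns 19 and 20, or with a mutated 5′ splice site of intron 19. The short + 72 nt minigene was short_1 with the beginning of intron 19 added, and short + 72 nt + mut 5′SS was the same with the added 5′ splice site mutated. The endogenous gene was not edited in any of them, so the 6 libraries were treated as samples of endogenous splicing under 6 different transfections. Whether a transfected minigene changed endogenous splicing was not tested, because no direct RNA library of untransfected cells was analysed here. RT-PCR amplicons of introns 15 to 20 from non-transfected (NT) cells, in 2 replicates, gave a second measure of those 6 introns.

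The libraries held 296 to 3362 *EIF4G2* reads each. The endogenous reads numbered 32 in the long library, 25 in short_1, 13 in Δint19+20, 52 in short + 72 nt + mut 5′SS, 132 in mut 5′SS and 236 in short + 72 nt. The short + 72 nt library thus gave the most endogenous reads, and the Δint19+20 library the fewest. Of the 490 reads, 382 began at intron 1, 453 reached intron 21 and 359 listed all 21 introns (73.3%). Pooled over libraries, each intron was determined in 378 to 471 reads, and within 1 library in 6 to 228. Intervals are 95% Wilson intervals, and with the limits for a share of 0, which 3 counts set, they cover counting error only. Intervals over a block of introns count every call as independent. Because 1 read gives several calls of a block, these block intervals are too narrow. Reads of 1 library share their cells, so comparisons were made over the 6 libraries.

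**Figure D1:**
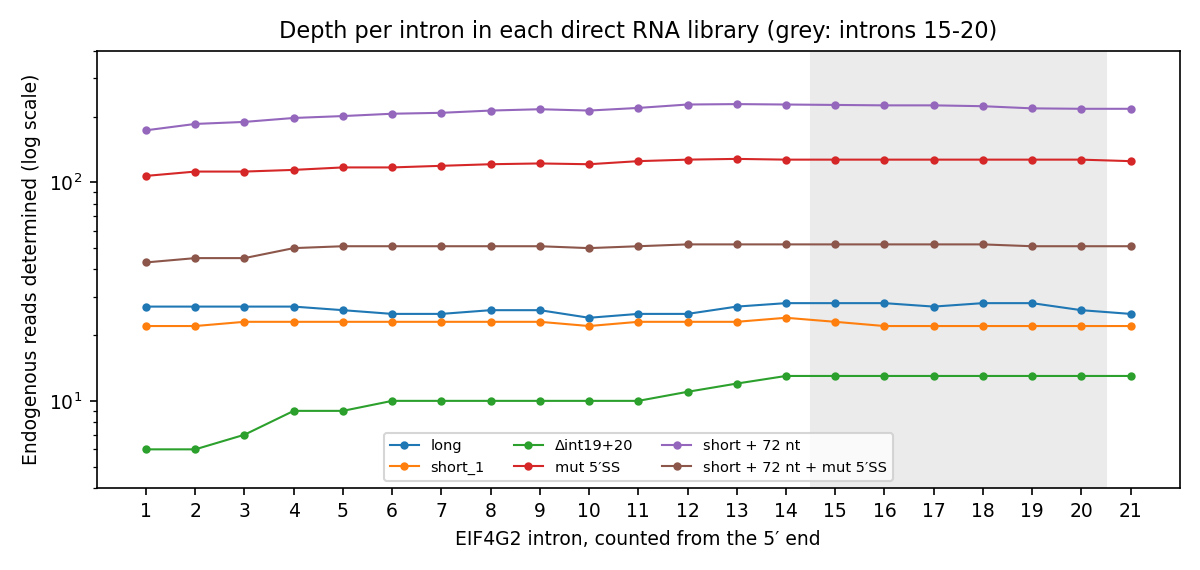
Endogenous reads with a determined status (log scale) at each *EIF4G2* intron, 1 line per direct RNA library, with introns 15 to 20 shaded. The 6 libraries keep apart over the whole gene, from 6 to 13 reads per intron in Δint19+20 to between 173 and 228 in short + 72 nt.

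For 10 of the 490 reads, the label endogenous was doubtful. Every one of introns 1 to 14 that these reads listed was skipped or undetermined, and they ended at intron 18, 19 or 20, near where the minigenes end. Not reaching intron 21 was part of how these 10 reads were set apart, so it is not a separate finding about them. Of the other 480 reads, 453 reached it (94.4%). The doubtful reads came from the long (1 read), short + 72 nt + mut 5′SS (1 read), mut 5′SS (2 reads) and short + 72 nt (6 reads) libraries. They were kept, since the rule takes them. They carried 130 of the skipped calls at introns 1 to 14, 20 of those at introns 15 to 20 and 10 of the retained calls at introns 15 to 20, and shares that rest on these calls are also given without them.

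The splice sites the results turn on are shown as read from the GRCh38 sequence, minus strand of chromosome 11, with intron positions from GENCODE release 44. Each 5′ splice site holds 3 exon and 6 intron bases and each 3′ splice site 20 intron and 3 exon bases, with the terminal GT and AG of the intron in capitals. Introns 13 and 14 are shown because the exon between them was the one most often left out. Introns 10 and 18 had the highest retained shares outside and inside the minigene region, and intron 21 was excised in every read.
Intron 13 5′ splice site, chr11:10802043-10802051: cagGTaagt
Intron 13 3′ splice site, chr11:10801772-10801794: tttctccttttctgaaatAGggg
Intron 14 5′ splice site, chr11:10801655-10801663: gagGTacat
Intron 14 3′ splice site, chr11:10801085-10801107: tattttgttttcaattccAGatt
Intron 10 5′ splice site, chr11:10803205-10803213: cagGTaata
Intron 10 3′ splice site, chr11:10803126-10803148: aaattatttttcaattaaAGgat
Intron 18 5′ splice site, chr11:10800084-10800092: cagGTaaga
Intron 18 3′ splice site, chr11:10799754-10799776: aggtggctttgtctcttcAGaaa
Intron 21 5′ splice site, chr11:10798986-10798994: cagGTaagt
Intron 21 3′ splice site, chr11:10797879-10797901: ttacaaatcttaatttatAGgtg

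All 20 introns with a settled position began with GT and ended with AG. The 6 bases GTAAGT, read on the minus strand at the first 6 positions of the intron, opened 7 of the 20 (35.0%): introns 4, 5, 6, 8, 13, 16 and 21. Intron 14 did not open with them. Lengths ran from 82 nt (intron 10) to 1110 nt (intron 21). Introns 6, 7, 10, 12, 16, 17 and 20 were shorter than 100 nt. Intron 10 also had the lowest GC content of the 20, 22%. Positions of intron 1 are not given, because the annotation joins 6 different first exons to exon 2 and the count files name introns by number.

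Retention was rare outside the minigene region in these reads of total RNA. Over introns 1 to 14 together, 5761 of 6084 determined calls were excised (94.7%, 94.1 to 95.2), 22 were retained (0.362%, 0.239 to 0.547) and 301 were skipped (4.95%, 4.43 to 5.52). Without the doubtful reads, 171 of 5954 were skipped (2.87%, 2.48 to 3.33), and the retained calls stayed at 22 (0.369%). Introns 1, 2, 4 and 5 were retained in 0 reads, which allows shares of up to 0.794%, 0.756%, 0.714% and 0.703%. The other 10 introns of this block were retained in 1 to 6 reads each.

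Intron 10, at chr11:10803129-10803210, had the highest retained share of introns 1 to 14, with 6 of 440 reads (1.36%, 0.626 to 2.94). Introns 9 and 11 beside it were retained in 3 reads each, 0.670% (0.228 to 1.95) and 0.662% (0.225 to 1.93). The 3 intervals overlapped, but some reads retained more than 1 of these introns, and whether the shares differ was not tested. Of the 6 reads retaining intron 10, 4 came from the short + 72 nt library, 1 from mut 5′SS and 1 from Δint19+20. Intron 10 was also the intron most often left undetermined, in 10 reads of the 19 undetermined calls at introns 1 to 14.

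Intron 21, at chr11:10797882-10798991, is the last intron and the longest of the 20 with a settled position. It was excised in all 453 reads that listed it. A retained share of up to 0.662% is allowed by these reads. It was excised in 25 of 25 reads of the long library, 22 of 22 of short_1, 13 of 13 of Δint19+20, 51 of 51 of short + 72 nt + mut 5′SS, 125 of 125 of mut 5′SS and 217 of 217 of short + 72 nt. Intron 20 was likewise retained in 0 of 456 reads and intron 15 in 0 of 469.

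**Figure D2:**
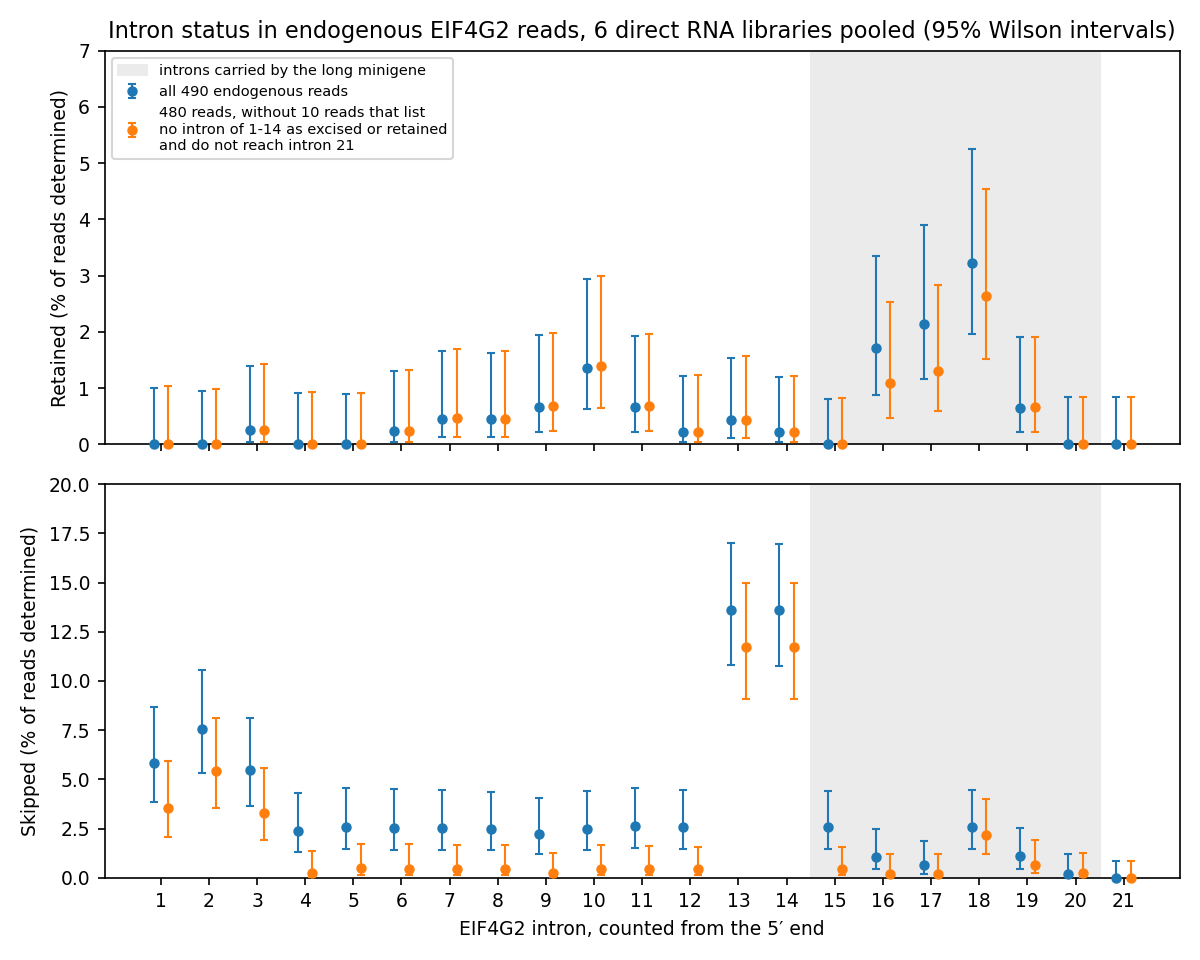
Retained share (top) and skipped share (bottom) of determined endogenous reads at each *EIF4G2* intron, 6 direct RNA libraries pooled, with 95% Wilson intervals. Blue points use all 490 reads and orange points the 480 left without the doubtful reads. Intron 18 has the highest retained share, and introns 13 and 14 the highest skipped shares.

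Inside the minigene region, 2708 of 2782 calls were excised (97.3%, 96.7 to 97.9), 36 were retained (1.29%, 0.936 to 1.79) and 38 skipped (1.37%, 0.997 to 1.87). Without the doubtful reads, 26 of 2739 were retained (0.949%, 0.649 to 1.39) and 18 skipped (0.657%, 0.416 to 1.04). The short + 72 nt library gave 27 of the 36 retained calls, and without it 9 of 1448 were retained (0.622%, 0.327 to 1.18). Intron 18, at chr11:10799757-10800089, had the highest retained share of all 21 introns, with 15 of 465 reads (3.23%, 1.96 to 5.25). It was followed by intron 17 with 10 of 466 (2.15%, 1.17 to 3.90), intron 16 with 8 of 467 (1.71%, 0.871 to 3.34) and intron 10. Intron 19 was retained in 3 of 459 reads (0.654%, 0.223 to 1.90), just below introns 9 and 11. The intervals of introns 16, 17 and 18 overlapped. Without the doubtful reads, the retained shares were 2.63% (12 of 456) at intron 18, 1.31% (6 of 457) at intron 17 and 1.09% (5 of 457) at intron 16, and intron 10 at 1.39% stood between introns 17 and 18. The short + 72 nt library gave 11 of the reads retaining intron 18, 7 of those retaining intron 17 and 7 of those retaining intron 16. Without that library, the shares were 1.65% (4 of 242) at intron 18, 1.24% (3 of 241) at intron 17, 0.881% (2 of 227) at intron 10 and 0.413% (1 of 242) at intron 16.

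Per library, intron 18 was retained in 1 of 28 reads of the long library (3.57%), 1 of 22 of short_1 (4.55%), 0 of 13 of Δint19+20, 0 of 52 of short + 72 nt + mut 5′SS, 2 of 127 of mut 5′SS (1.57%) and 11 of 223 of short + 72 nt (4.93%). Of the last 11 reads, 3 were doubtful, and without these it was 8 of 218 (3.67%), below the share in short_1. Introns 1 to 14 were retained in 0 of 365, 2 of 320 (0.625%), 2 of 133 (1.50%), 0 of 695, 5 of 1669 (0.300%) and 13 of 2902 (0.448%) calls of these libraries, in the same order. The intron 18 share was therefore the higher one in 4 libraries, the lower one in Δint19+20 and equal, at 0, in short + 72 nt + mut 5′SS.

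The difference between intron 18 and introns 1 to 14 was 1.96 ± 2.41 percentage points (SD, n = 6 libraries), with p = 0.1875 by a two-sided exact permutation of signs and an adjusted p of 0.225 over 6 such tests. Intron 18 exceeded the other introns of its own region by 1.84 ± 1.94 points (SD, n = 6), higher in 4 of 6 libraries (exact permutation p = 0.125, adjusted p = 0.1875). Introns 15 to 20 as a block exceeded introns 1 to 14 by 0.428 ± 1.19 points (SD, n = 6), higher in 5 of 6 libraries (exact permutation p and adjusted p = 0.28125). This mean was 0.149 points without the long library, 0.198 without short + 72 nt and 0.814 without Δint19+20. In short + 72 nt + mut 5′SS the block was higher only through 1 doubtful read. Without the doubtful reads, both shares of that library were 0 (0 of 306 and 0 of 681 calls). Intron 21 minus introns 1 to 14 was -0.479 ± 0.559 points (SD, n = 6), lower in 4 libraries and equal in 2 (exact permutation p = 0.125, adjusted p = 0.1875). None of these differences passed the threshold of 0.05, and the smallest p that 6 libraries allow is 0.03125. The 2 libraries with the most reads gave 13 of the 15 reads retaining intron 18, and in the other 4 libraries 1 read made up 1.92% to 7.69% of the reads at intron 18.

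**Figure D3:**
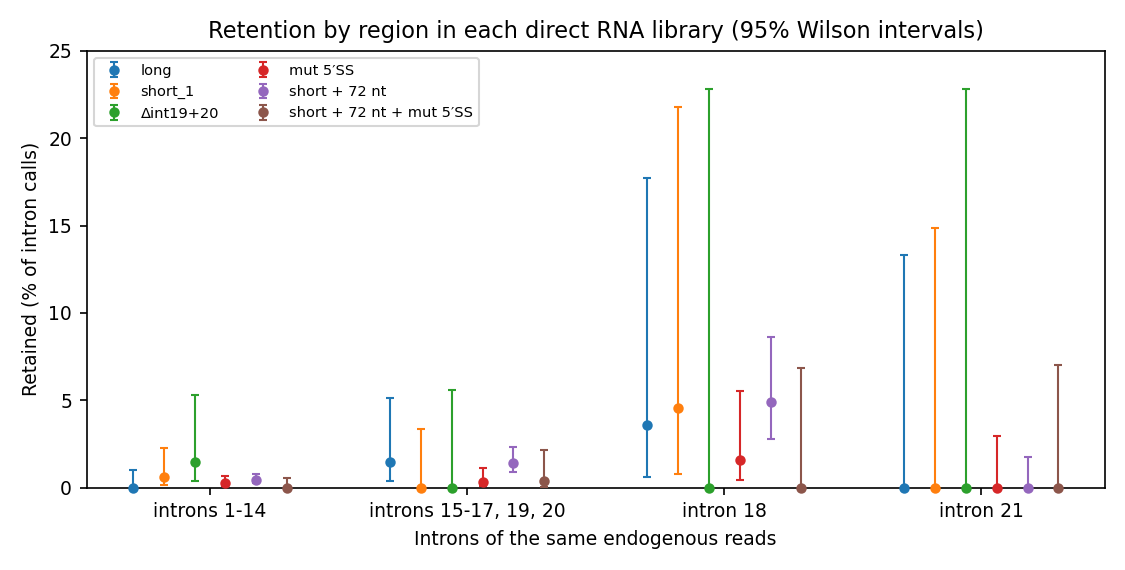
Retained share of intron calls in endogenous reads for introns 1 to 14, introns 15 to 20 without intron 18, intron 18 and intron 21, 1 coloured point per direct RNA library, with 95% Wilson intervals. Intron 18 reaches 4.93% in short + 72 nt and is at 0 in Δint19+20 and short + 72 nt + mut 5′SS, and intron 21 is at 0 in all 6. Intervals of the blocks are too narrow, because 1 read gives several calls.

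Retained introns came together in a few reads. Only 19 of the 490 reads retained any intron (3.88%, 2.5 to 5.98), and 13 of these 19 carried 52 of the 58 retained calls. Of the 15 that were left without the doubtful reads, 12 retained intron 18 and all 15 reached intron 21 and had excised it. The most incomplete read, from the short + 72 nt library, began at intron 9 and retained 10 introns, and a mut 5′SS read that began at intron 7 retained 8. Intron 15 was excised in all 12 of the reads that retained intron 18, as were introns 20 and 21.

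The same few reads were counted by which of intron 18 and a distant neighbour was retained while the other was excised. Counts for different neighbours share reads, and the order of excision was not tested. The reads came from total RNA, whereas the paper's sequencing data on endogenous splicing order came from chromatin-associated RNA. Without the doubtful reads, intron 18 was retained with intron 12 excised in 10 reads and the reverse in 0. The numbers were 6 and 0 for each of introns 4 to 8, 8 and 1 for intron 9, and 6 and 2 for intron 10. Both introns 10 and 18 were retained in 4 reads. Only 3 reads retained introns of the block 1 to 14 and none of introns 15 to 20: 1 at intron 10 (short + 72 nt), 1 at introns 9 and 10 (Δint19+20) and 1 at intron 13 (short_1).

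Reads that began after intron 1 retained introns more often than reads that began at intron 1. Of the 480 reads, 6 of the 373 that listed intron 1 retained any intron (1.61%, 0.739 to 3.46), against 9 of the 107 that began later (8.41%, 4.49 to 15.2), although the later reads list fewer introns. In the short + 72 nt library the shares were 3 of 171 and 6 of 59, and in mut 5′SS 1 of 106 and 1 of 24. The short_1 library went the other way, with 2 of 22 and 0 of 3. Intron 18 was retained in 4 of 360 reads from intron 1 (1.11%, 0.433 to 2.82) and in 8 of 96 later reads (8.33%, 4.28 to 15.6). This split was chosen after the values were seen and was not tested.

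Introns 13 and 14 had the highest skipped shares of the gene, 64 of 470 reads (13.6%, 10.8 to 17) and 64 of 471 (13.6%, 10.8 to 17). Without the doubtful reads, these were 54 of 460 (11.7%, 9.11 to 15.0) and 54 of 461 (11.7%, 9.09 to 15.0). In 53 reads the 3′ splice site of intron 13 and the 5′ splice site of intron 14 were unused while their outer sites were used, which is the pattern of a left-out exon 14. Exon 14, at chr11:10801661-10801774, has 114 nt, or 38 whole codons, so that its loss keeps the reading frame. GENCODE lists the junction that skips it in 2 *EIF4G2* transcripts. SNORD97, a small nucleolar RNA gene, lies in the intron that follows this exon, at chr11:10801467-10801608.

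Exon 14 alone was skipped in 53 of 468 reads over introns 13 and 14 (11.3%, 8.76 to 14.5). The share was 14.8% in the long library (4 of 27 reads), 8.70% in short_1 (2 of 23), 8.33% in Δint19+20 (1 of 12), 11.5% in short + 72 nt + mut 5′SS (6 of 52), 8.66% in mut 5′SS (11 of 127) and 12.8% in short + 72 nt (29 of 227). All 6 libraries held such reads, with a mean of 10.8% ± 2.67 (SD, n = 6), and all 6 intervals overlapped. Without the doubtful reads, it was 53 of 458 (11.6%, 8.96 to 14.8).

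**Figure D4:**
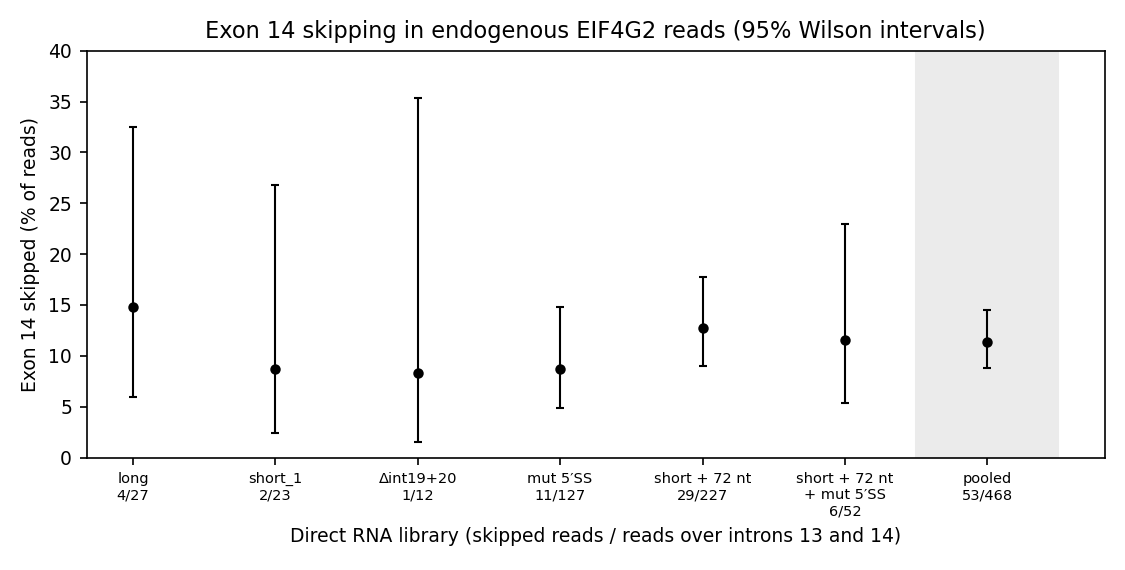
Share of endogenous reads in which exon 14 alone is skipped, for each direct RNA library and pooled (shaded), with 95% Wilson intervals and the read numbers under each name. The shares lie between 8.33% and 14.8%.

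Among the 359 reads that listed all 21 introns, 273 had excised every intron (76.0%, 71.4 to 80.2), and 33 differed from these only by the loss of exon 14 (9.19%, 6.62 to 12.6). These were the 2 most frequent status combinations of the 94 in the pooled endogenous reads. The next 3 were reads with every listed intron excised that began at intron 4 (14 reads), intron 2 (13) and intron 12 (9). Reads without exon 14 retained another intron in 6 of 53 cases (11.3%, 5.29 to 22.6), and reads with introns 13 and 14 both excised in 7 of 402 (1.74%, 0.846 to 3.55). The 6 reads came from short + 72 nt (4 of 29) and mut 5′SS (2 of 11), and none of the 13 such reads in the other 4 libraries retained an intron. This comparison was chosen after the values were seen and was not tested.

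Other exons were left out less often, with intervals below that of exon 14. Exon 3, with 66 nt or 22 codons, was skipped alone in 11 of 395 reads (2.78%, 1.56 to 4.92), 5 from mut 5′SS, 2 from short + 72 nt + mut 5′SS and 4 from short + 72 nt. Exon 2, which holds the start codon at chr11:10807293-10807295, was skipped alone in 5 of 378 reads (1.32%, 0.566 to 3.06), all from short + 72 nt. Both junctions are listed in GENCODE, in 1 transcript each. Of exons 2 to 21, 13 were skipped alone in 0 reads. At introns 4 to 12, the skipped share was 2.23% to 2.65% with all reads and 0.228% to 0.478% without the doubtful reads, so most skipping there came from those 10 reads.

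Introns 15 to 20 were skipped less often than introns 1 to 14 in 5 of 6 libraries, by 2.66 ± 2.39 percentage points (SD, n = 6). This did not pass the test (exact permutation p = 0.09375, adjusted p = 0.1875), and without the doubtful reads the difference was -1.61 points. The 12 skipped calls at intron 18 included 7 in which its 5′ splice site was unused, with intron 17 excised in all 7. Of these, 5 reads were from short + 72 nt, 1 from short_1 and 1 from short + 72 nt + mut 5′SS. GENCODE lists an upstream 5′ splice site for this intron in 1 transcript, inside exon 18. The files name no coordinates, and whether these reads used it was not tested.

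Over all 490 reads, 372 of the 465 without an undetermined intron had every listed intron excised (80%, 76.1 to 83.4). The share was 83.3% in the long library (25 of 30), 79.2% in short_1 (19 of 24), 84.6% in Δint19+20 (11 of 13), 78.0% in short + 72 nt + mut 5′SS (39 of 50), 82.7% in mut 5′SS (105 of 127) and 78.3% in short + 72 nt (173 of 221). The 6 shares thus lay between 78.0% and 84.6%. Intervals were wide where reads were few, such as 57.8% to 95.7% in Δint19+20, and differences between libraries were not tested.

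Endogenous and minigene reads of the same library were compared at intron 18. In minigene reads it was retained in 4.79% (47 of 982 reads, long), 71.0% (130 of 183, short_1), 56.8% (147 of 259, Δint19+20), 78.0% (160 of 205, short + 72 nt + mut 5′SS), 6.93% (107 of 1545, mut 5′SS) and 53.7% (642 of 1195, short + 72 nt). The highest endogenous share was 4.93%, in short + 72 nt, or 4.55%, in short_1, without the doubtful reads. Minigene reads were higher in 6 of 6 libraries, by 42.8 ± 32.1 points (SD, n = 6). The 6 libraries held 6 different minigenes and are not replicates of 1 condition, so this mean and SD describe the minigenes chosen. The exact permutation p was 0.03125, the smallest that 6 libraries allow, and the adjusted p over the 6 tests was 0.1875, which did not pass the threshold. A test that alone reaches this smallest p is adjusted to 0.1875 however large the difference is. The correction could therefore not be passed by this comparison alone, and it decides nothing about the difference. The retained shares of the long and mut 5′SS libraries differed by 1.21 and 5.35 points. The mut 5′SS minigene reads had intron 18 excised in 2.59% and skipped in 90.5%, against 96.1% and 2.36% in endogenous reads, and the long minigene reads had it skipped in 9.88%, against 0 of 28. With skipped calls left out of the denominator, the mean difference was 60.7 points (adjusted p = 0.15625 by exact permutation).

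**Figure D5:**
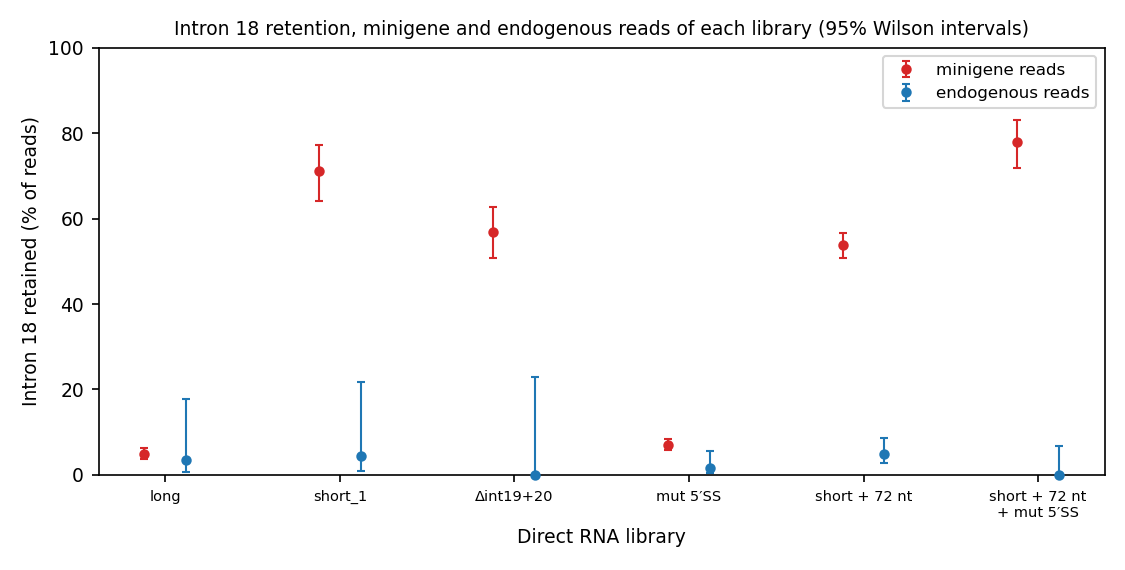
Intron 18 retained share in minigene reads (red) and endogenous reads (blue) of each direct RNA library, with 95% Wilson intervals. Endogenous shares lie between 0 and 4.93%, and minigene shares between 4.79% and 78.0%.

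Endogenous direct RNA reads were set against the NT amplicons, 24304 and 27748 reads over exactly introns 15 to 20. The NT reads came from PCR on non-transfected cells, whereas the direct RNA reads came from transfected cells without PCR. The comparison therefore cannot separate assay from transfection. For a minigene, the paper reports that PCR underestimated retention, likely because a shorter product was preferentially amplified. Whether this holds for the NT amplicons was not tested. Intron 18 was retained in 2.44% ± 2.22 of direct RNA reads (SD, n = 6) and in 2.57% and 1.89% of reads of the 2 NT replicates, an exact permutation p of 0.857 and an adjusted p of 0.929. Intron 17 was at 1.59% ± 1.59 against 1.55% and 1.40%, and intron 16 at 0.650% ± 1.25 against 1.05% and 1.29% (SD, n = 6). Introns 15 and 20 were retained in 0 reads of every direct RNA library, and in 0.0576% and 0.144%, and 0.161% and 0.317%, of the NT reads. None of the 6 introns passed the test, in which 6 libraries against 2 cannot give a p under 0.0714. The NT means for introns 15 and 20 were below the limit that the 0 counts of the pooled direct RNA reads allow, so a difference was not detectable at this depth.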

How the data were processed

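Direct RNA of 6 transfected HEK293T cultures and RT-PCR amplicons of 2 NT cultures were used, and 8 minigene amplicon libraries were not used here. The authors deposited whole-number read counts, 1 for every set of intron statuses seen, after basecalling, alignment to GRCh38 with minimap2, selection of uniquely mapped reads and status calling from the alignment. How the fast basecalling model affected the calls of short introns was not tested. From these counts, excised, retained and skipped shares were computed, leaving undetermined calls out and skipped calls in, with 95% Wilson intervals. Libraries had equal weight. Differences were tested by two-sided exact permutation (sign changes over 6 libraries, or 6 libraries against 2) with Benjamini-Hochberg adjustment within each family of 6 tests, at 0.05. Each minigene had 1 direct RNA library, so p-values measure only the spread between these libraries. Any of the 21 introns, and the 5 most frequent status combinations, could be named. The members and tests were chosen with earlier results of these data known. Counting was tested on simulated reads. Alternatives changed the denominator, the reads taken as endogenous, the weights and the libraries. Python 3.11.15, NumPy 2.4.6 and SciPy 1.17.1 were used.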

Additional observations from a re-analysis of the deposited data

Results flagged for a closer look

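Outside the reads taken as endogenous, 369 reads listed intron 21 and none of introns 1 to 14. Intron 21 was not excised in 333 of them (skipped in 199, undetermined in 131 and retained in 3) and excised in 36, whereas it was excised in all 453 endogenous reads that listed it. By library, the reads with intron 21 excised numbered 0 in long, 3 in short_1, 4 in Δint19+20, 1 in short + 72 nt + mut 5′SS, 13 in mut 5′SS and 15 in short + 72 nt. In these 36 reads, intron 18 was retained in 1 of 21 reads with a status there (4.76%, 0.846 to 22.7). The 333 reads are a signal outside the reads the comparisons use, and their origin was not tested.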

How the results depend on the processing

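No comparison passed the threshold as reported, nor under any alternative run except one, which took the 369 reads that list intron 21 without introns 1 to 14 as endogenous too (36 of them had intron 21 excised). The retained difference was then 4.49 points for introns 15 to 20 and 17.6 points for intron 18 against introns 1 to 14, 15.97 points for intron 18 against the rest of its region and 27.1 points for minigene against endogenous reads, each past the threshold (adjusted p = 0.046875 by exact permutation), and the skipped difference turned to 3.25 points. With only the 36 reads added, no call changed. Counts pooled over libraries gave 0.932 points for introns 15 to 20 against introns 1 to 14 and 24.996 points for minigene against endogenous reads. Intron 21 minus introns 1 to 14 was -0.275 points without Δint19+20. Of the shares of single introns and of exon 14 recomputed under the alternatives, 494 stayed within the interval of the reported share and 87 did not, 34 of these with combinations of at least 2 reads.

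The share of endogenous reads with every listed intron excised was 75.9% with undetermined introns kept, 97.9% without reads with a skipped intron, 86.4% with combinations of at least 2 reads and 73.0% with all reads that list intron 21.

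The difference from the NT amplicons changed sign at introns 15, 16 and 20 with those reads (1.19, 2.15 and 0.0873 points), and at intron 16 with counts pooled over libraries (0.539). With combinations of at least 2 reads it was -1.47, -2.23 and -0.521 points at introns 17, 18 and 19. With reads that list all of introns 1 to 14 it was -0.890, -0.848 and -0.521. Intron 17 was at -0.365 with reads that list every intron from 15 to 21 and at -0.418 without the 10 doubtful reads. Pooled counts gave -0.104 at intron 15 and -0.244 at intron 20. Leaving out 1 library gave -0.308 to 0.432 at intron 17, -0.293 to 0.694 at intron 18 and -0.338 to 0.376 at intron 19. None of these passed the threshold, and the causes were not tested.

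No paired analysis was possible because each minigene has 1 direct RNA library and so no replicate number to block on, beyond the pairing within libraries that the sign changes already use. With 13 to 236 endogenous reads per library, a retained share of a few percent rests on single reads, and sign changes over 5 libraries cannot reach 0.05.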
